A study of Mus musculus with 3 samples.

Results

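The Eph, ephrin, Slit, Robo and netrin genes were examined in the developing ureter, the muscular duct between kidney and bladder. They were taken by symbol: the Epha, Ephb, Efna, Efnb, Slit, Robo, Ntn and Unc5 genes with Dcc, Neo1, Ntng1 and Ntng2, wherever a probe set was annotated to that gene alone. This gave 40 genes with 84 probe sets, of 18194 named genes on the array. Ephb2 had no probe set annotated to it alone and was not analysed here. The samples were 3 ureters of wild-type FVB/N embryos at embryonic day 15 (Theiler stage 23), of unknown sex, named replicates 3, 8 and 9, and they form 1 group. Each was dissected from the pelvis to the point where it enters the bladder, was not pooled, and was amplified in 2 rounds before hybridisation to a 1-colour Affymetrix array (Mouse Genome 430 2.0). The labels do not give the embryo or litter of each sample, so part of the spread may be technical. With 1 group, no comparison between conditions exists, and the values below describe this tissue at 1 stage.

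These families carry short-range and diffusible cues that attract or repel cells and axons. Eph receptors are receptor tyrosine kinases that bind ephrins on neighbouring cells. Ephrin-A proteins are held in the membrane by a lipid anchor and ephrin-B proteins span it, so that ephrin-B proteins can signal back into their own cell. Slit proteins are secreted and bind Robo receptors, and netrins are secreted, laminin-related proteins that bind Dcc, neogenin (Neo1) and Unc5 receptors. In mouse and human urinary tract development, Slit2 and Robo2 are known for limiting where the ureteric bud forms, and Epha4 and Epha7 for the joining of the nephric duct to the cloaca in mice.

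The deposited signals share 1 mean per array, so a level is relative to the rest of its array, and the number of arrays limits its precision. Probe sets differ in brightness for reasons other than transcript amount, so levels are not ranked between genes. For each gene the probe set brightest on average, by log2(signal + 1), was used. A gene was called above background where its signal exceeded, on all 3 arrays, the 95th percentile of 30 genes of tissues outside the dissection. That level was 235, 269.8 and 308 in replicates 3, 8 and 9. The labelled tissue was described with marker lists: 10 of 12 ureteric mesenchyme genes, 9 of 12 urothelial genes and 1 of 9 nephron genes were above background. The urothelial genes not above background were the uroplakin genes Upk1a, Upk2 and Upk3a, whereas Upk1b and Upk3b were above it. These lists were chosen with earlier results of these data known, so they are no independent check. Markers of tissues outside the ureter were above background too, 8 of 8 hepatocyte genes (Afp at 45937 ± 9943) and 9 of 10 skeletal muscle genes (Myh3 at 22257 ± 3328). In bulk tissue, fewer cells of a type and less RNA per cell cannot be told apart.

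Of the 40 guidance genes, 22 (55%) were above background on all 3 arrays, against 60.1% of all named genes. A further 2 genes were above background on 2 arrays, 5 on 1 array and 11 on none. The share was close to that of the whole array. Within the families it differed by role: all 8 measured ephrin genes were above background, 6 of 13 Eph receptor genes, 3 of 7 Slit and Robo genes and 5 of 12 netrin and netrin receptor genes. With all probe sets averaged, 3 of 5 ephrin-A and 2 of 3 ephrin-B genes were above background. So were 2 of 9 Eph-A and 3 of 4 Eph-B genes, against 49.7% of all named genes. Genes with several probe sets have more chances to exceed background, and shares by number of probe sets were not taken for each role. Of the 23 guidance genes with several probe sets 16 were above background (69.6%, against 77.9% of all such genes), and of the 17 with 1 probe set 6 were (35.3%, against 42.6%).

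**Figure D1:**
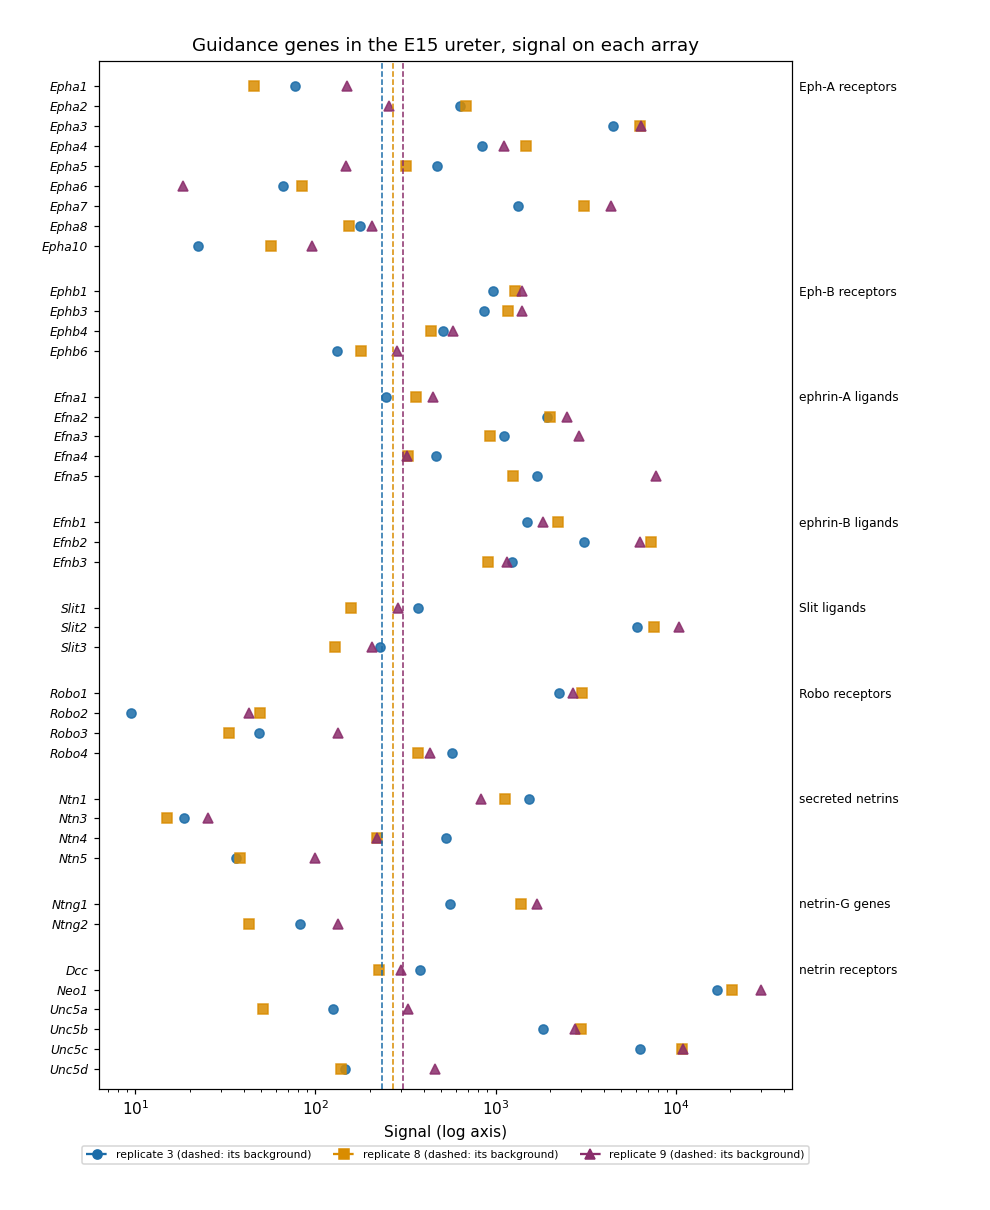
Signal (log axis) of the 40 guidance genes on each of the 3 arrays, grouped by role, with 1 point per replicate and a dashed line at each array's background level. Every point of the 8 ephrin genes lies to the right of its own array's line, whereas Robo2, Ntn3 and Epha10 lie to the left of all lines.

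Among the Slit ligands, Slit2 was the 1 gene above background. Its signal was 6112, 7609.6 and 10483 in replicates 3, 8 and 9, a mean of 8068 ± 2221 (SD, n = 3, as for every mean ± SD here). All samples were far above background, and replicate 9 was the highest. Only 1 of the 3 Slit2 probe sets was above background on all arrays. Slit1, which acts mainly in the nervous system, had 372, 157 and 286 in replicates 3, 8 and 9, above background in replicate 3 alone. Slit3 had 228, 129 and 207 in replicates 3, 8 and 9, below background on every array.

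The Robo receptors were split. Robo1 had signals of 2241, 3023 and 2707 in replicates 3, 8 and 9 (2657 ± 394), and the 3 samples differed by no more than 1.35-fold. Robo4, known from endothelial cells, had 577, 369.95 and 429.97 in replicates 3, 8 and 9 (459 ± 106). Those values were above background but near it. Robo2 had 9.39, 48.9 and 42.9 in replicates 3, 8 and 9 and was below background on every array. Robo2 was measured by 1 probe set, so a second reading of that receptor gene was not available from these arrays. Robo3, which controls midline crossing of axons, had 48.6, 33.1 and 133 in replicates 3, 8 and 9, also below background on each. The ligand gene Slit2 and the receptor gene Robo1 were thus both measured above background, and Robo2 was not. Robo4 was no longer above background with the 99th percentile of the reference genes, nor was Robo1 when all its probe sets were averaged.

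The stretch before the start is shown for Slit2, Robo1 and Robo4, the Slit and Robo genes above background, and for Robo2, which was below. Those of Robo3, Slit1 and Slit3 are not printed. Each is the 250 bases before the most upstream RefSeq start in the promoter table (GRCm38.p6), with CG dinucleotides in capitals. Slit2 lies at chr5:47982905-47983154 (+), Robo1 at chr16:72662899-72663148 (+), Robo2 at chr16:75447294-75447543 (-) and Robo4 at chr9:37401722-37401971 (+).
Slit2: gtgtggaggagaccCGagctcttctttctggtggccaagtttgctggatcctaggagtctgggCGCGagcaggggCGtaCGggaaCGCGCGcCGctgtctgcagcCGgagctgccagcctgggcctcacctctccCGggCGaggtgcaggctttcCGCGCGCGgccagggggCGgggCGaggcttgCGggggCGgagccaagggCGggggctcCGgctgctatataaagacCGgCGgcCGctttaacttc
Robo1: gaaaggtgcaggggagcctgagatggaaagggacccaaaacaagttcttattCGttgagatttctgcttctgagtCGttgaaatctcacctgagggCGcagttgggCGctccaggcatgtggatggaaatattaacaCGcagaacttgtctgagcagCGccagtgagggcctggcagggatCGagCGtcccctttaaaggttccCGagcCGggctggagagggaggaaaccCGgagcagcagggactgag
Robo2: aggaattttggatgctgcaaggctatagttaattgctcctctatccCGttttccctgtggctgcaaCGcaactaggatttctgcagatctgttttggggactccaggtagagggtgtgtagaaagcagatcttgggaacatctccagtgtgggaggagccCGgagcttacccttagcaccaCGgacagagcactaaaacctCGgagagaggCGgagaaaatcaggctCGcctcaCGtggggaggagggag
Robo4: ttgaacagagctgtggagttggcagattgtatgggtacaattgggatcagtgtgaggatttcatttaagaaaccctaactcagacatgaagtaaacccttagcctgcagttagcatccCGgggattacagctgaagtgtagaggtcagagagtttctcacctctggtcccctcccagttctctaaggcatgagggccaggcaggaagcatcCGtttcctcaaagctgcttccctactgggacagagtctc

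The Slit2 window held 25 CG dinucleotides and 69.6% G and C. At least as many CG dinucleotides were held by 10.7% of the 32851 mouse promoter windows of this length. Robo1 had 11 CG dinucleotides, Robo2 8 and Robo4 2. For those counts, 35.6%, 43% and 81.2% of all windows held at least as many. The other RefSeq starts of Robo2 had 4 and 14. A TATAAA motif, searched on both strands, ended 22 bases before the Slit2 start and is present in 12.4% of all windows. Such letter matches describe the windows and do not show a site in use.

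Windows of this kind were matched for 35 of the 40 guidance genes, all but Dcc, Efnb3, Ntn1, Slit1 and Unc5d. In the 20 matched genes above background the median was 17.5 CG dinucleotides (from 2 to 45), and in the 15 not above background it was 15 (from 2 to 46). Both medians exceeded that of all windows, 6. The ranges of CG count coincided almost fully, so the count did not separate guidance genes above background from the others. The motif GGGCGG, searched on both strands and overlapping the CG count, was in 13 of the 20 and 12 of the 15, against 32.7% of all windows. Guidance gene promoters were mostly rich in CG dinucleotides whether or not the gene gave signal.

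All 5 ephrin-A genes were above background. Efna5 had signals of 1709, 1249 and 7780.3 in replicates 3, 8 and 9, and Efna3 had 1120.2, 929.9 and 2901 in the same order. Both were highest in replicate 9, by more than 2-fold over either other sample. Efna2 varied little, with 1931, 2016 and 2482 in replicates 3, 8 and 9 (2143 ± 297). Efna1 had 245, 361 and 451 in replicates 3, 8 and 9, and Efna4 had 464, 325 and 324. Efna1, known as a ligand of Epha2, and Efna4 exceeded background narrowly, by 0.06 and 0.07 on the log2 scale where they were closest to it. Both calls ended with the 99th percentile of the reference genes. With all probe sets averaged, Efna1 and Efna5 were not above background.

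The 3 ephrin-B genes were also above background. Efnb2, known from arterial endothelium and from the closing of the urethra and cloaca in mice, had signals of 3102, 7301 and 6362 in replicates 3, 8 and 9. Replicate 3 was lowest, and both other samples were more than 2-fold higher. Efnb1, an X-linked gene known from craniofacial development, had 1503, 2227 and 1832 in replicates 3, 8 and 9 (1854 ± 362). Efnb3, known from the midline of the spinal cord, had 1232, 912 and 1151 (1098 ± 166). For both the 3 samples were within 1.5-fold of each other. Of 4 Efnb2 probe sets 2 were above background, and the call ended when all were averaged.

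Of the 9 Eph-A receptor genes, Epha3, Epha4 and Epha7 were above background on all arrays. Epha3 had signals of 4511, 6348 and 6429.9 in replicates 3, 8 and 9 (5763 ± 1085). Epha7 had 1332, 3101 and 4375 in replicates 3, 8 and 9 (2936 ± 1528), with replicate 3 apart from the others. Epha4, a receptor that binds ephrins of both classes, had 839, 1485 and 1114 (1146 ± 324). Its call ended when its 5 probe sets were averaged.

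Epha2, known from epithelial cells, had 631, 683 and 255 in replicates 3, 8 and 9, and Epha5, known mainly from the nervous system, had 475, 319 and 148. Each was above background in replicates 3 and 8 and not in replicate 9, and both were counted as above background without replicate 9. The other Eph-A genes were below background on every array. Epha8 averaged 179 ± 26, Epha1 90.5 ± 53.1, Epha10 58.2 ± 36.8 and Epha6 56.2 ± 34.1. Epha10 encodes a receptor thought to lack kinase activity.

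Of the 4 Eph-B receptor genes measured, 3 were above background. Ephb1 had signals of 969, 1289.6 and 1402 in replicates 3, 8 and 9 (1219.9 ± 225), and Ephb3 had 864, 1177 and 1411 (1151 ± 274). Both were lowest in replicate 3. Ephb4, known from venous endothelium as a receptor for Efnb2, had 509.8, 441 and 581 (510.5 ± 69.9), and the samples were within 1.32-fold of each other. Ephb6, which encodes a receptor without kinase activity, had 131, 178 and 285 and was below background on every array.

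Among secreted netrins, Ntn1 was above background, with signals of 1533, 1134 and 826 in replicates 3, 8 and 9 (1164 ± 355). It was 1 of 2 guidance genes above background that were lowest in replicate 9, with Efna4, which was almost as low in replicate 8. Ntn4, known from basement membranes, had 533, 219.97 and 219.6 and was above background in replicate 3 alone. Ntn3 (19.6 ± 5.2) and Ntn5 (58 ± 36.2) were below background throughout. Of the lipid-anchored netrin-G genes, Ntng1 had 557, 1381 and 1700.4 in replicates 3, 8 and 9, lowest in replicate 3. Its call ended when its 4 probe sets were averaged. Ntng2 averaged 85.9 ± 45 and was below background.

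The netrin receptors divided between Neo1, Unc5b and Unc5c, which were above background, and Dcc, Unc5a and Unc5d, which were so on 1 array each. Neo1, which also binds repulsive guidance molecules, had signals of 16947, 20557 and 29641 in replicates 3, 8 and 9 (22382 ± 6541). Its probe set has the suffix _s_at, which marks probes shared by several transcripts, and the next Neo1 probe set, without that suffix, gave 4486.5, 5259 and 6510.3 in the same order. Unc5c, which mediates repulsion by netrin, had 6334, 10929 and 10932 (9398 ± 2654). Unc5b, known from endothelial tip cells, had 1837, 2989 and 2755 (2527 ± 609). For all 3 genes replicate 3 was lowest.

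Dcc, the receptor best known for attraction towards netrin, had signals of 380.04, 226 and 298 in replicates 3, 8 and 9. Unc5a had 125, 51.4 and 327, and Unc5d had 146, 139 and 461. Dcc was above background in replicate 3 and slightly below it in the other samples, whereas Unc5a and Unc5d were above it in replicate 9 and well below it in replicates 3 and 8. Without replicate 8, Dcc was counted as above background.

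**Figure D2:**
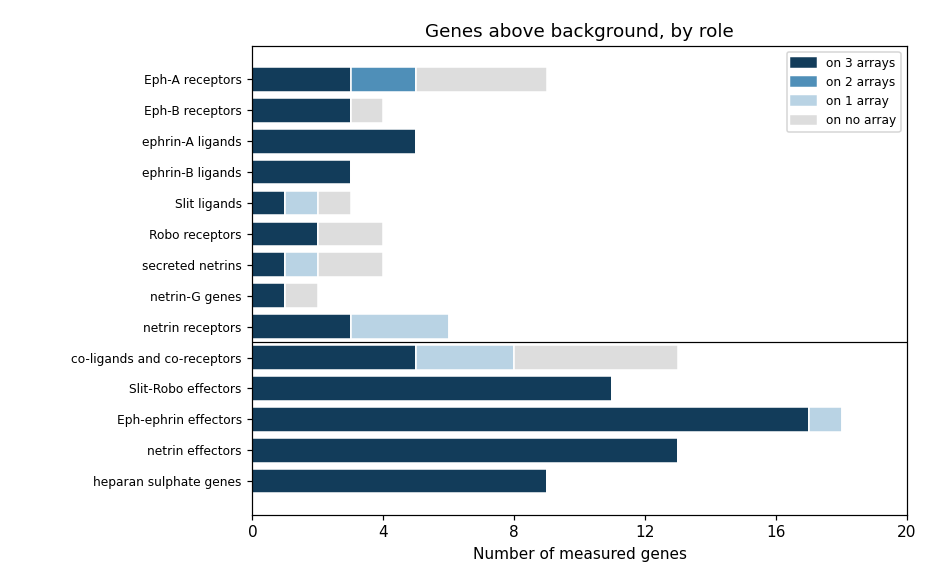
Number of measured genes above background on 3, 2, 1 or no arrays, for each role of the guidance genes (above the line) and for lists of partner genes (below it). The ephrin bars are filled for all 8 genes, and the effector lists for all genes but 1.

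Partner genes of these pathways were taken from lists by role. Of 64 measured, 55 (85.9%) were above background, against 60.1% of all named genes. All 11 Slit-Robo effector genes were, including Enah and Evl, which encode actin regulators of one family (29907 ± 8003 and 11920.5 ± 1022), and the exchange factor gene Sos1 (7445 ± 2213). All 13 netrin effector genes were, with the GTPase genes Cdc42 at 29306 ± 1012, Rhoa at 24048 ± 3316 and Rac1 at 23534 ± 2604. Many effectors serve other pathways in most cells. Of 18 Eph-ephrin effector genes 17 were, among them Sdcbp, which encodes the ephrin-B binding protein syntenin (21481 ± 2346), the phosphatase gene Acp1 (20499 ± 3115) and Adam10, which encodes a protease that cleaves ephrins (14726 ± 3227). Ngef, the gene of a RhoA exchange factor bound to Epha4, was the exception (239 ± 114). All 9 heparan sulphate genes were above background, with Hs2st1 at 9176 ± 228, Glce at 6018 ± 1948 and Sdc1 at 5998 ± 1333. With all probe sets averaged, 40 of the 64 partner genes were above background, against 49.7% of all named genes.

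Co-ligands and co-receptors differed from the effectors, with 5 of 13 above background (38.5%, against 60.1% of all named genes). Flrt2 and Flrt3, which encode ligands of Unc5 receptors, had signals of 11384 ± 1923 and 2084 ± 1074. Dag1, which encodes the Slit-binding protein dystroglycan, had 8539 ± 360, and Rgmb and Nell1, named after their values were seen, were above background as well. Flrt1 (227 ± 107) and Lrrc4 (228 ± 71) were so on 1 array, and Rgma, Draxin, Nell2, Dscam and Dscaml1 on none. Lrrc4c, which encodes the binding partner of Ntng1, had signals of 61.6, 60.4 and 821 in replicates 3, 8 and 9. It was above background in replicate 9 alone.

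The samples did not differ alike for all guidance genes. Among the 22 above background, the SD between samples had a median of 0.38 on the log2(signal + 1) scale, against 0.29 for the 10929 genes above background. A range of at least 1 on that scale, a 2-fold difference between the highest and the lowest sample, was found for 5 of the 22, against 15.9% of genes above background. These were Efna5 (range 2.64), Epha7 (1.71), Efna3 (1.64), Ntng1 (1.61) and Efnb2 (1.23). For Efna5, 0.284% of genes above background had a larger range. Without replicate 3 the order turned round, with a median SD of 0.21 for guidance genes and 0.25 for all genes above background. Guidance genes with such a range then numbered 2 (9.09%, against 7.08% of all genes above background). Without replicate 9 they numbered 3 (12.5%, against 7.22%).

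Replicate 3 was the lowest sample for 15 of the 22 guidance genes, against 30.8% of genes above background. Replicate 8 was lowest for 5, against 30.5%, and replicate 9 for 2, against 38.7%. Replicate 9 was the highest sample for 13, against 31.7%, replicate 8 for 5, against 34.8%, and replicate 3 for 4, against 33.6%. Some of these ranks rest on very small differences, as for Unc5c in replicates 8 and 9 (10929 and 10932). The median deviation from a gene's own mean was -0.36, 0.07 and 0.22 on the log2 scale in replicates 3, 8 and 9. Over all genes above background it was 0.01, 0.02 and -0.03 in the same order. With quantile normalization replicate 3 was still lowest for 15 of 22, against 31% of genes above background. With averaged probe sets it was lowest for 9 of 16, against 34.3%. Without a filter on low values it was lowest for 19 of 40, against 28.5% of all genes. Efna4, Robo4, Ntn1 and Efnb3 ran the other way and were highest in replicate 3. The 3 samples have no order, and genes are not independent replicates.

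**Figure D3:**
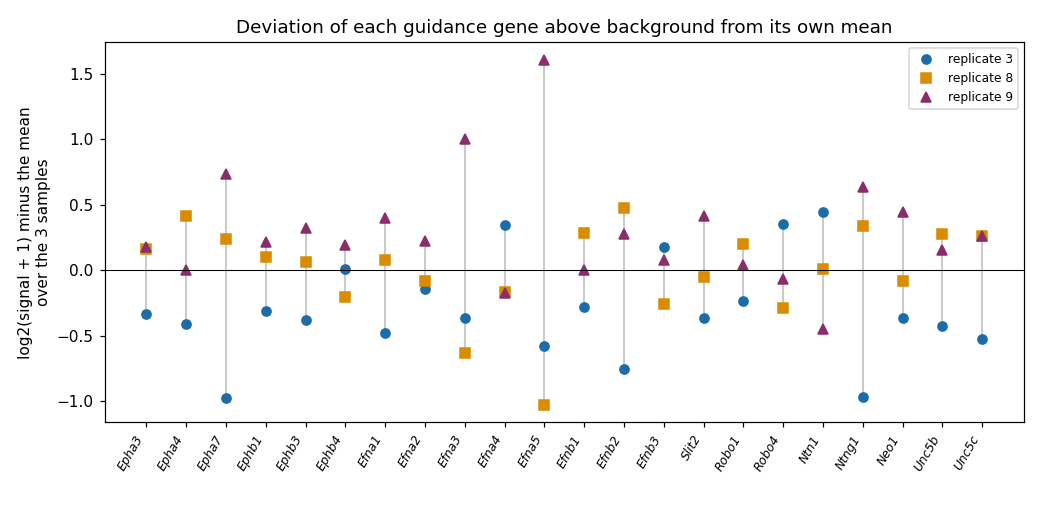
Deviation of log2(signal + 1) from the mean over the 3 samples for the 22 guidance genes above background, with 1 point per replicate and a grey line over the range. Replicate 3 (circles) is the lowest point for 15 genes, and Efna5 has the widest range.

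Other measures differed between the samples too, and not all in the same order. Of 9 measured neuron and glia markers, 7 were above background on all arrays and 7 were lowest in replicate 3. Their summed signal was 10547, 17208 and 21678 in replicates 3, 8 and 9. Stmn2, a neuronal gene and the marker of this list with the widest range, had 1425, 5676 and 6761 in replicates 3, 8 and 9. Sox10 (307, 206 and 632) and Erbb3 (4116, 3251 and 4386) were lowest in replicate 8 instead. Every measured marker of the list was above background on at least 2 arrays. Hepatocyte markers ran the other way: all 8 were highest in replicate 3 and lowest in replicate 8, with summed signals of 216750, 116382 and 165337 in replicates 3, 8 and 9. Skeletal muscle markers summed to 76562, 65743 and 64339, with 7 of 10 lowest in replicate 9. Control probe sets at both ends of a transcript also differed. The ratio of 3′ to 5′ signal for Actb was 7.45, 6.5 and 4 in replicates 3, 8 and 9. For Pcx it was 10.5, 5.95 and 2.65, and for Gapdh 18.9, 15.1 and 16.4. Replicate 3 thus had the highest ratio for each control. The part of neural, liver or muscle RNA or of labelling length in the levels of guidance genes was not tested.

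Endothelial markers took another course. Their summed signal was 22422, 22949 and 17162 in replicates 3, 8 and 9, with 9 of 12 genes above background and 11 of 12 lowest in replicate 9. Of the guidance genes known from endothelium, Robo4 and Ephb4 were lowest in replicate 8, and Efnb2 and Unc5b in replicate 3. The part of endothelial RNA in their levels was not tested. Urothelial markers summed to 47347, 62945 and 41721 in replicates 3, 8 and 9, and ureteric mesenchyme markers to 78089.6, 95206 and 78183. Both were highest in replicate 8.

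A second probe set gave a further reading of the differences between samples for 8 guidance genes that had at least 2 above background. The lowest sample was the same in the 2 brightest probe sets for 6 of the 8, against 44.8% of the 4052 genes with such a pair, and the highest sample for 4 of the 8, against 45.7%. For Epha7 the second probe set gave 874, 3698 and 5129 in replicates 3, 8 and 9, lowest in replicate 3 like the first. Efnb2 gave 760.2, 2258 and 2568, and Efna3 gave 534, 531 and 1006, again highest in replicate 9. For Epha3 it gave 1133, 1514 and 3612, and for Unc5c 1109.8, 2902 and 1548.5, all lowest in replicate 3. Efnb1 and Epha4 did not repeat: their second probe sets gave 554, 336 and 495, and 517, 358 and 542, lowest in replicate 8, where the first was highest. Efna5 and Ntng1 had no second probe set above background on all arrays.

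**Figure D4:**
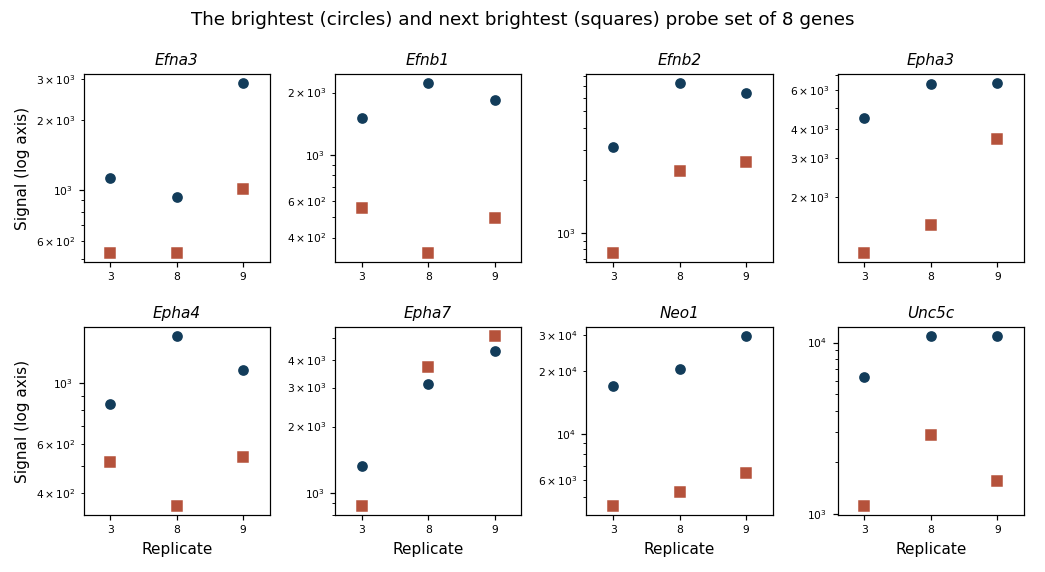
Signal (log axis) in replicates 3, 8 and 9 of the brightest (circles) and the next brightest (squares) probe set of the 8 guidance genes with at least 2 probe sets above background. Both probe sets of Epha7, Epha3, Neo1, Efnb2 and Unc5c are lowest in replicate 3. For Efnb1 and Epha4, replicate 8 is highest in the brightest probe set and lowest in the next brightest.

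Of all 84 probe sets, 30 were above background on all 3 arrays. Among the 16 genes above background with several probe sets, 2 (Efna3 and Unc5c) had all of them above background and 14 had at least 1 that was not. The same counts over the whole array are not given here, so these are not traits of the guidance genes. Of the 18 genes not above background, 7 had several probe sets, none of them above background on all arrays. Robo2 and Slit3 were among those read by 1 probe set.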

How the data were processed

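The deposited values are linear signal intensities, 1 per probe set and array. Per the submitters' processing notes they come from GCOS, the array maker's software. Not given in the sources used here are its version, its background step and any detection call. The 2% trimmed mean was 1500 on each array, so the authors' values had been scaled to a common mean, and the medians still differed (234, 198 and 273 in replicates 3, 8 and 9). Amplification favours the 3′ end of a transcript, so a probe set nearer the 5′ end can be dim.

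Of 45101 probe sets, 34958 had 1 symbol in the platform annotation, 932 had several and 9211 are not named here. All 84 guidance probe sets matched the reference gene table by Entrez ID. Values were analysed as log2(signal + 1) in Python 3.11.15 with pandas 2.3.3. Of 36 reference genes listed, 30 were measured. How often the call is right was not tested, either for genes close to background, such as Efna1 and Efna4, or for genes far from it. No test between groups was possible.

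The settings varied were the normalization (quantile), the pseudocount (16 and 64), the probe sets (their mean, or none ending in _x_at or _s_at), the percentile (90th and 99th), the arrays required (2), the replicates (each left out in turn), the filter on low values (none) and, chosen after seeing the data, no exocrine pancreas genes in the reference list. All guidance genes are accounted for. Of each partner list, up to 3 genes with the highest mean and the genes not above background are named. The genes and lists were chosen with earlier results of these data known. Promoter sequences are from RefSeq (GRCm38.p6).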

Additional observations from a re-analysis of the deposited data

How the results depend on the processing

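The number of guidance genes above background was 22. It was 16 with the mean of probe sets (49.7% of all genes), 19 with the 99th percentile as background (55.9%) and 22 to 24 in the other settings, and it stayed within 1.5 times. Leaving out a replicate gave 22 to 24. Over 10 settings, 14 guidance genes were above background in every one and 15 in none, and 11 changed in at least 1. The same counts over all genes are not given here, so whether this is usual for the array is not known. Eph-A receptor genes above background numbered 5 when at least 2 arrays were required (64.3% of all genes). They numbered 3 to 5 when a replicate was left out (61% to 62% of all genes). Ephrin-A genes numbered 3 with the mean of probe sets and 3 with the 99th percentile, Robo genes 1 in each of these, and netrin-G genes 0 with the mean of probe sets. Guidance genes with a range of at least 1 numbered 19 of 40 without a filter on low values (47.5%, against 34.6% of all genes), and 2 to 5 when a replicate was left out (9.09% to 21.7%, against 7.08% to 8.96%). The median SD was 0.21 to 0.45 when a replicate was left out, against 0.21 to 0.25 for all genes above background. Without replicate 3 it was lower for guidance genes (0.21) than for all genes (0.25), the reverse of the values with all samples. Averaging probe sets mixes in those that are not above background, and it also changes the background level itself. The part of each in the lower counts was not tested. No paired analysis was possible because the samples form 1 group.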
